A study of Homo sapiens with 6 samples.

Results

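The proteasome genes of cells labelled MKN45, a human line established from a gastric cancer, were compared between 3 libraries of cells given an shRNA directed at tcons_00001221, called target libraries here, and 3 libraries of cells given a control shRNA. An shRNA is a hairpin that the cell processes into a short guide against RNAs of matching sequence. All cells grew in DMEM with 10% FBS. Members were the rows of the gene table whose symbol begins with PSM, a letter from A to G and a digit, together with POMP, and PSMB8, PSMB9 and PSMB10 were left out. The rule found 45 of 11658 genes, and it used symbols only, no measured value. Of these, 44 encode proteasome subunits, regulators or assembly factors: 7 alpha subunits, 7 beta subunits, 6 ATPases, 3 other base subunits, 8 lid subunits, 4 activators, the inhibitor PSMF1 and 8 assembly chaperones. The remaining one, PSMC3IP, shares the start of its symbol but encodes a protein of meiotic recombination, and it is reported apart. PSMA8 and PSMB11, forms known from testis and thymus, were not among the genes analysed here.

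The proteasome is the large protease that degrades proteins tagged with ubiquitin. Its core particle is a barrel of stacked alpha and beta rings, with the active sites on the inner face of 3 beta subunits. A regulatory particle caps the barrel: ATPases unfold the substrate and push it in, other base subunits hold ubiquitin, and the lid cuts ubiquitin chains off. Dedicated chaperones put the rings together, and alternative activators can open the barrel without ubiquitin. When proteasome activity is short, the transcription factor NFE2L1 is known to raise most subunit genes together.

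Values were in FPKM, a fragment number divided by transcript length and by the library's total. They are per length and so can be set side by side between genes, but the order also depends on how gene values were formed. The files give no read number behind a value, so no counting error can be given. The FPKM summed over all genes lay between 186226 and 192101 in the 6 libraries. Gene values on the log2(FPKM + 1) scale gave a Pearson's r, computed over genes and so with no independent replicates, of 0.985 to 0.987 among control libraries, 0.987 to 0.988 among target libraries and 0.983 to 0.986 across the groups. Whether replicates were separate cultures is not in the labels, and the p-values below measure only how these libraries vary, which may be technical variation. The transcript that the shRNA targets was not analysed here, so the size of its knockdown is not known and groups go by their labels. Of 8 epithelial markers 6 were analysed, such as KRT18 (60.9 FPKM in control libraries and 57.0 in target libraries) and EPCAM (7.26 and 6.84), while CDH1 and KRT19 were not among the genes analysed. CLDN4, of the same list, measured 10.96, 10.03 and 10.6 FPKM in control libraries and 10.6, 0.0586 and 0.175 FPKM in target libraries 1, 2 and 3 (log2 change -2.25, limma adjusted p = 0.295). Of 11 gastric and intestinal markers only MET, which measured 82.8 and 79.5 FPKM, and TFF1 were analysed, and CEACAM5, CEACAM6 and CDH17 were among the 9 that were not. Of 9 fibroblast or mesenchymal markers 5 were analysed, with VIM at 203 and 187 FPKM and COL5A1 at 260 and 221 FPKM. FN1 measured 25.5 and 22.6 FPKM, COL1A1 3.19 and 3.49, and DCN 1.46 and 1.07. The summed level of these 5 was 485 to 504 FPKM in control libraries and 430 to 446 FPKM in target libraries, and its part in the results was not tested. All 3 endothelial markers and 3 of 4 leukocyte markers were not among the genes analysed. Most of the listed gastric and intestinal markers thus had no value here, which goes against the markers listed for the labelled line. The mesenchymal list was mixed, with VIM and COL5A1 high, COL1A1 and DCN low and 4 of 9 not analysed. Most epithelial markers had values, and MKN45 is used as the label only.

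Proteasome genes were well expressed, and their levels differed from one another much more than between groups. By gene value, the mean over all 6 libraries ran from 1.52 FPKM for PSMG4 to 93.5 FPKM for PSMA7, with a median of 14.4 FPKM over the 44 genes. PSMA7, an alpha subunit, and PSMB7, a catalytic beta subunit, held the first 2 ranks in every library. PSMC3, an ATPase, and PSMB4, a beta subunit, held ranks 3 and 4 in every library, and their means of 71.0 and 69.0 FPKM lay within each other's spread. The lowest were the assembly chaperones PSMD9 and PSMG4, at ranks 43 and 44 in every library. Most neighbours in the order overlapped, and only PSMB5 and PSME3 moved by more than 10 ranks between libraries. By gene value, subunits that enter the particle in equal numbers were thus not equal in mRNA. The highest alpha subunit was 14.2 times the lowest (PSMA7 against PSMA3) and the highest beta subunit 5.11 times (PSMB7 against PSMB2). The highest ATPase was 12.6 times the lowest (PSMC3 against PSMC6). Summed over listed transcripts, subunits were again unequal, but the lowest by group mean were PSMA5, PSMB6 and PSMC4. Mean sums in control and target libraries were 142 and 171 FPKM for PSMA7 and 7.77 and 6.10 FPKM for PSMA5. They were 161 and 167 FPKM for PSMB7 and 28.7 and 30.5 FPKM for PSMB6. For PSMC3 they were 103 and 109 FPKM, and for PSMC4 13.2 and 14.9 FPKM.

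**Figure D1:**
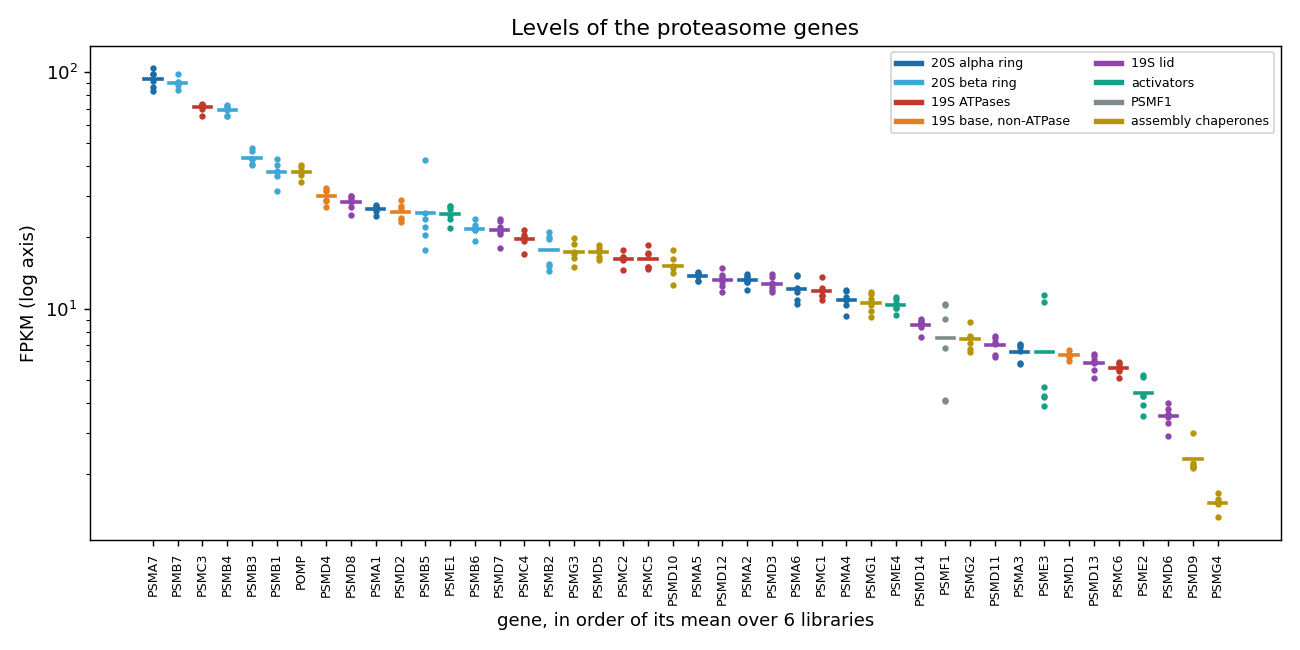
FPKM of each of the 44 proteasome genes on a log axis, with genes in order of their mean over 6 libraries (bars) and a dot for each library; colours mark the part of the proteasome. PSMA7 leads at a mean of 93.5 FPKM and PSMG4 is lowest at 1.52, and the 6 dots of most genes lie close together, with PSMB5, PSMF1 and PSME3 spread out.

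No proteasome gene passed the test of target against control libraries. With limma on log2(FPKM + 1) and Benjamini-Hochberg adjustment over all 10675 genes tested, 0 of the 44 had an adjusted p under 0.05, where 0.749% of all genes did. The smallest adjusted p was 0.121 (PSMD2) and the largest 0.967 (PSMB4). At an unadjusted p under 0.05 there were 13 of 44 (29.5%), beside 16.1% of all tested genes. These were 11 genes higher in target libraries (beside 11.4% of all genes) and 2 lower (beside 4.71%). In bulk libraries such as these, fewer cells of a kind and less RNA per cell cannot be told apart.

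Most members lay slightly above the control level all the same. The log2 change was above 0 in 39 of 44 (88.6%) and in 61.2% of all tested genes, and its median was 0.09 over the proteasome genes and 0.03 over all tested genes. Groups did not overlap for 15 of the 44, beside 23.7% of all tested genes. All 3 target libraries lay above all 3 control libraries for 13 of the 44 (29.5%, beside 16.6% of all genes) and below them for 2 (4.55%, beside 7.18%). These shares depend on the scaling. When every library was rescaled to the same median, 8 of 44 were higher without overlap (18.2%, beside 11.3% of all genes) and 2 were lower (4.55%, beside 11.3%), 36 of 44 had a log2 change above 0 (81.8%, beside 51.4%), and the median change was 0.06 beside 0.00387. The groups of PSMC3, PSMD9, PSMD10, PSMD11 and PSME2 then overlapped. At that scaling 15.9% of the 44 had an unadjusted p under 0.05, beside 14.7% of all genes. After quantile normalization 10 of 44 were higher without overlap (22.7%, beside 11% of all genes) and 2 were lower (4.55%, beside 10.9%). The log2 change was then above 0 in 84.1%, beside 50.2%, and the unadjusted p was under 0.05 in 22.7%, beside 14.4%.

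The summed FPKM of the 44 genes was 947, 920 and 876 in control libraries 1, 2 and 3 and 971, 1014 and 965 in target libraries 1, 2 and 3. The groups did not overlap, but the lowest target library lay only just above the highest control library. As a share of all gene FPKM this was 0.495%, 0.483% and 0.467% against 0.505%, 0.533% and 0.518%. No p is given for a sum over chosen genes. For 40 of 44 genes the 95% interval of the log2 change lay within 0.5 of 0 on either side, so changes beyond that size lay outside their intervals. The other 4 were PSMB2, PSMB5, PSME3 and PSMF1, which were also the only ones with a coefficient of variation over 20% within a group.

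**Figure D2:**
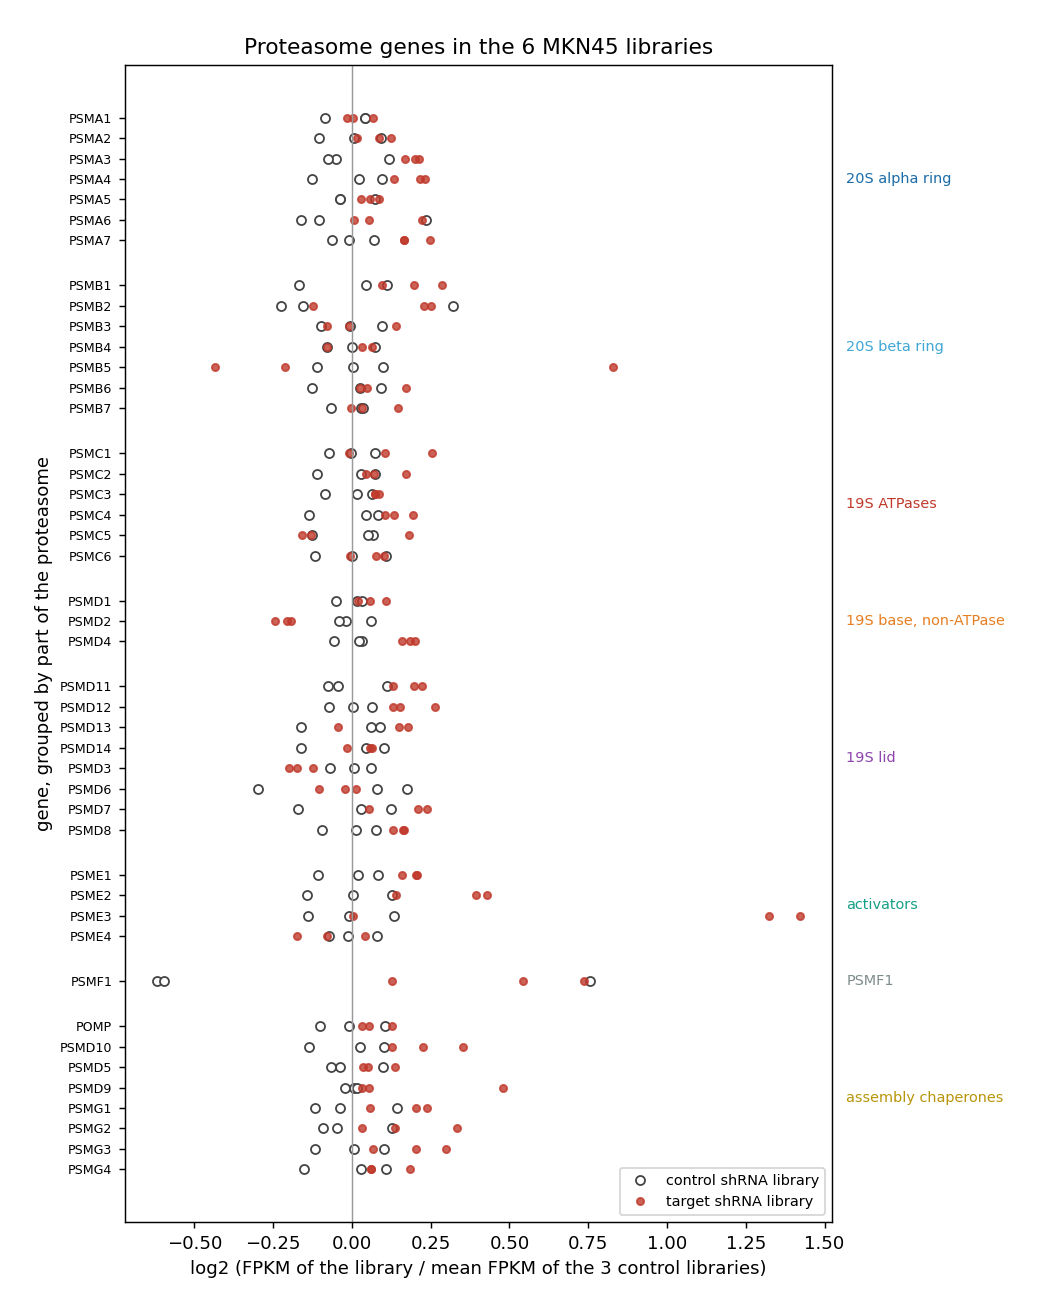
Each library's FPKM over the mean of the 3 control libraries, on a log2 scale, for the 44 proteasome genes grouped by part; open circles are control libraries and filled red circles target libraries. PSMD2 and PSMD3 lie left of their controls, 13 genes lie right of them without overlap, and PSMB5, PSME3 and PSMF1 each spread within a group.

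The 7 alpha subunits form the outer rings and the gate of the barrel. All 7 had a log2 change above 0, beside 61.2% of all tested genes, and 0 passed, beside 0.749%. The changes ran from 0.02 (PSMA1, which was at -0.015 after rescaling to the same median) to 0.19 (PSMA7), with a median of 0.10. PSMA7, on chromosome 20 at 60711791 to 60718496 (GRCh37, minus strand), measured 91.5, 83.5 and 86.8 FPKM in the control libraries and 97.8, 104 and 97.8 FPKM in the target libraries. The groups did not overlap, and the log2 change was 0.19 with an SE of 0.05 (95% interval 0.08 to 0.31, limma adjusted p = 0.163). PSMA4 measured 10.9, 9.34 and 10.4 FPKM against 11.98, 11.2 and 11.8, and PSMA3 5.92, 6.65 and 5.82 against 6.89, 7.04 and 7.10. Both were higher in every target library, with log2 changes of 0.18 and 0.17 (adjusted p = 0.270 and 0.266). Thus 3 of 7 alpha subunits were higher without overlap, beside 16.6% of all tested genes, and the groups of the other 4 alpha subunits overlapped. PSMA6 shares 38842 bases, nearly its whole locus, with the gene model RP11-561B11.2 on the same strand, and PSMA1 overlaps RP11-140L24.4, both under 2 FPKM, so reads may be divided between them.

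Beta subunits line the chamber. Their groups overlapped for all 7, where those of 23.7% of all tested genes did not. Log2 changes ran from 0.01 (PSMB4) to 0.19 (PSMB1), with adjusted p of 0.333 to 0.967. PSMB4 and PSMB3 were at -0.028 and -0.017 after rescaling to the same median. PSMB1, a structural subunit, measured 36.4, 38.1 and 31.4 FPKM in control and 40.5, 43.0 and 37.7 in target libraries, so that only target library 3 fell within the control range (adjusted p = 0.333). After quantile normalization the groups of PSMB1 did not overlap. The same held for its listed transcript, at 83.2, 84.94 and 70.2 FPKM against 93.7, 96.9 and 85.02. Of the catalytic subunits, PSMB6, with the caspase-like site, measured 21.5, 22.6 and 19.4 FPKM against 21.6, 23.8 and 21.9, a log2 change of 0.08 (95% interval -0.09 to 0.25, adjusted p = 0.615). PSMB7, with the trypsin-like site, measured 90.1, 90.4 and 84.3 FPKM against 97.7, 90.3 and 88.0 (log2 change 0.06, 95% interval -0.07 to 0.19, adjusted p = 0.628). For both of these catalytic subunits the 95% interval included 0 and reached no further than 0.25.

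PSMB5, with the chymotrypsin-like site that proteasome inhibitors used in myeloma bind, behaved differently within the target group. It measured 23.9, 25.5 and 22.1 FPKM in control libraries, and 17.6, 42.3 and 20.5 FPKM in target libraries. Target library 2 was thus above every control library and the other 2 target libraries below every one. The log2 change was 0.06 with a 95% interval of -0.67 to 0.80 (adjusted p = 0.939), and it was -0.31 without target library 2 (adjusted p = 0.347). Transcript PSMB5-002 measured 14.9, 48.3 and 20.8 FPKM in the target libraries after 21.2, 20.2 and 20.3 in the control libraries. It thus shared the split only in part: 48.3 lay above and 14.9 below every control library, while 20.8 lay within the control range. PSMB5-005 measured 8.89, 15.6 and 7.65 FPKM in the control libraries and 7.88, 8.26 and 4.83 FPKM in the target libraries. PSMB2 also varied within groups, at 21.0, 14.4 and 15.1 FPKM in control and 15.5, 20.1 and 19.8 in target libraries.

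The immunoproteasome subunits PSMB9, PSMB10 and PSMB8 can take the places of PSMB6, PSMB7 and PSMB5 in cells that respond to interferon. PSMB9 equalled 12.8%, 12.1% and 14.0% of PSMB6 in control libraries and 19.7%, 17.3% and 16.2% in target libraries, and these groups did not overlap. PSMB9 itself measured 2.74 ± 0.021 FPKM in control and 3.98 ± 0.382 in target libraries (SD, n = 3 per group) and did not pass in limma (log2 change 0.41, adjusted p = 0.079). PSMB10, at 5.10%, 5.44% and 4.98% of PSMB7 against 5.87%, 5.81% and 6.06%, did not overlap between groups either. PSMB10 itself measured 4.57 ± 0.361 and 5.44 ± 0.265 FPKM (SD, n = 3 per group), also without overlap, and did not pass (log2 change 0.21, limma unadjusted p = 0.0191, adjusted p = 0.237). Of the 3 immunoproteasome genes 2 were thus higher without overlap, beside 16.6% of all tested genes. PSMB8 was 72.6%, 77.2% and 73.2% of PSMB5 in control libraries and 109%, 43.3% and 101% in target libraries, with PSMB5 itself uneven among them.

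**Figure D3:**
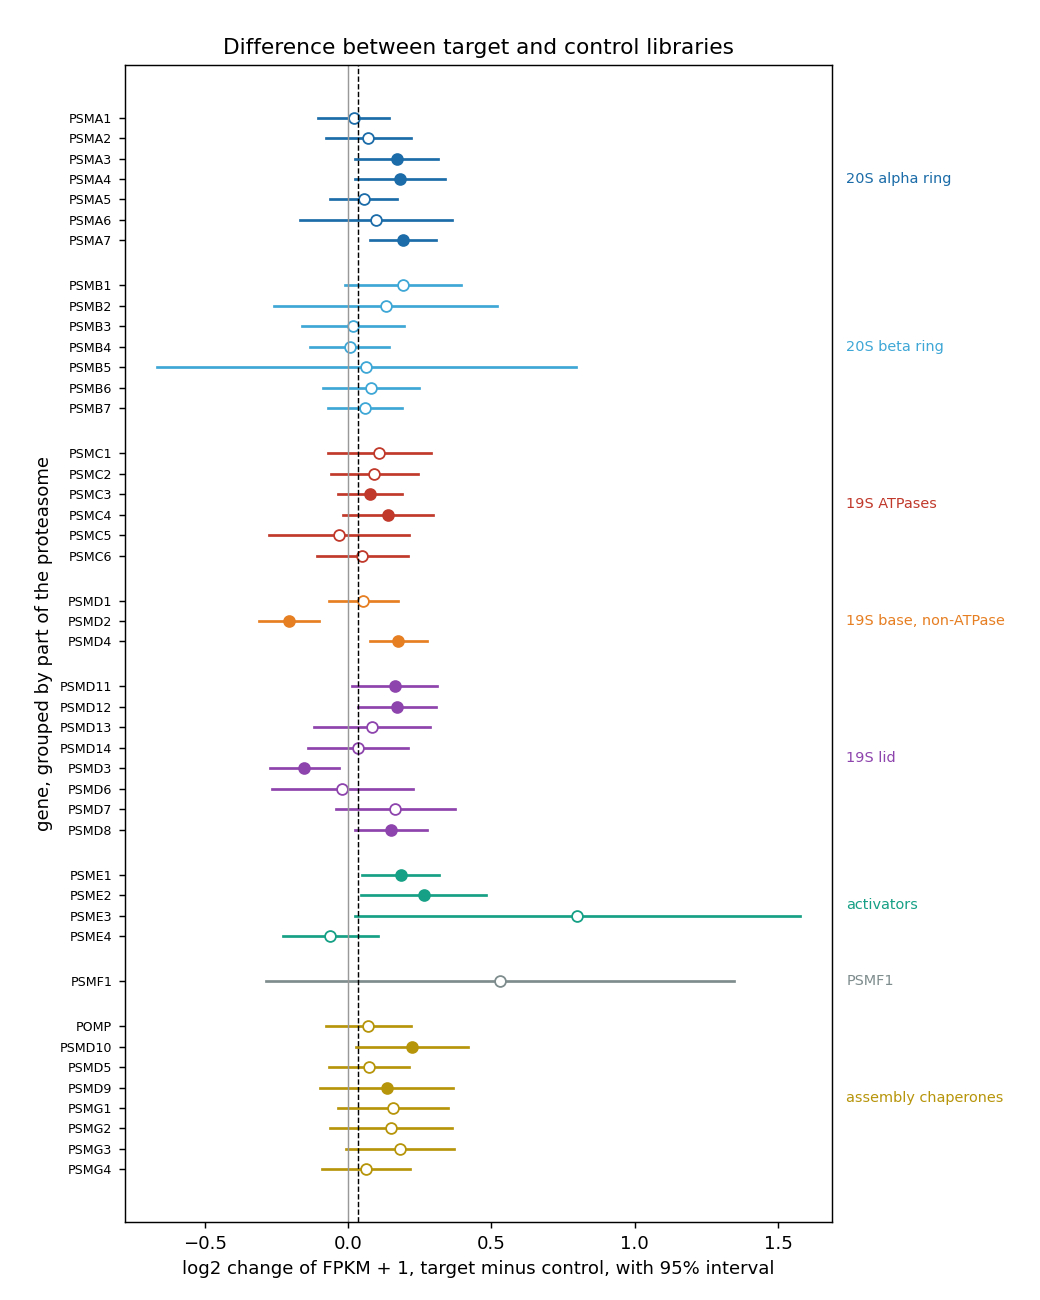
Difference of target and control libraries in log2(FPKM + 1) for the 44 proteasome genes with its 95% interval (limma, 3 libraries per group); filled points are genes whose groups did not overlap, the solid line is 0 and the dashed line is the median of all tested genes, 0.03. PSMD2 lies at -0.21 and PSMD3 at -0.15, while most others lie between 0 and 0.2; PSMB5, PSMF1 and PSME3 have the widest intervals.

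The 6 ATPases make up the motor ring of the cap. Their log2 changes ran from -0.03 (PSMC5) to 0.14 (PSMC4), with a median of 0.08 and adjusted p of 0.360 to 0.905. PSMC4 measured 19.9, 17.1 and 19.3 FPKM in control libraries and 20.2, 21.5 and 20.6 in target libraries. PSMC3, the most abundant of them, measured 72.3, 69.8 and 65.2 FPKM against 73.3, 72.8 and 72.8. In both the target libraries lay above the control libraries (2 of 6 ATPases, beside 16.6% of all tested genes). Yet the lowest target value lay within 1 FPKM of the highest control value. PSMC5 was the only ATPase with a change below 0, at 17.2, 16.98 and 15.03 FPKM against 18.6, 14.98 and 14.7, groups that overlap. PSMC5 overlaps FTSJ3 on the opposite strand, as PSMC1 does NRDE2 and PSMC2 DNAJC2, and strandedness is not given in the sources used here.

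The 3 base subunits without ATPase activity that the symbol rule found went apart. Without overlap, 1 was higher (beside 16.6% of all tested genes) and 1 lower (beside 7.18%). ADRM1, a ubiquitin receptor of the base outside the rule, is given with the cofactors below and is not in the sum of the 3. PSMD2, known as RPN1, a scaffold that docks ubiquitin-like carriers, was lower in target libraries, and PSMD4, known as RPN10, a ubiquitin receptor, was higher. PSMD2, on chromosome 3 at 184016497 to 184026842 (GRCh37, plus strand), measured 28.7, 27.1 and 26.7 FPKM in control libraries and 23.8, 24.1 and 23.2 FPKM in target libraries. Every target library lay below every control library. On the log2 scale they differed by -0.21 (SE 0.04, 95% interval -0.31 to -0.10, limma unadjusted p = 0.00281, adjusted p = 0.121). PSMD4, on chromosome 1 at 151227179 to 151239955 (plus strand), measured 27.0, 28.7 and 28.5 FPKM against 32.2, 31.4 and 31.9, higher by 0.18 on the log2 scale (SE 0.04, adjusted p = 0.145). PSMD1, known as RPN2, the third of them, measured 5.995, 6.28 and 6.35 FPKM against 6.47, 6.29 and 6.69, and its groups overlapped (adjusted p = 0.635). The summed FPKM of the 3 was 61.6, 62.1 and 61.6 in control and 62.5, 61.7 and 61.8 in target libraries, and these ranges overlapped.

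Among the 8 lid subunits, 3 were higher in every target library (beside 16.6% of all tested genes) and 1 was lower (beside 7.18%), and the median log2 change was 0.12. PSMD12 (RPN5) measured 12.5, 13.0 and 11.8 FPKM against 13.6, 13.8 and 14.9 (log2 change 0.17, adjusted p = 0.244). PSMD11 (RPN6) measured 7.10, 6.38 and 6.23 FPKM against 7.20, 7.67 and 7.53 (0.16, adjusted p = 0.280), and its groups overlapped after rescaling to the same median. PSMD8 (RPN12) measured 28.1, 26.9 and 25.0 FPKM against 29.8, 29.9 and 29.2 (0.15, adjusted p = 0.260). The target means of these 3 were 1.14, 1.14 and 1.11 times their control means. PSMD3 (RPN3), on chromosome 17 at 38137050 to 38154213 (plus strand), was the lid subunit lower without overlap by gene value. It measured 14.1, 12.9 and 13.6 FPKM against 12.4, 11.97 and 11.8. Its log2 change was -0.15 with an SE of 0.05 (95% interval -0.27 to -0.03, adjusted p = 0.241). PSMD14 (RPN11), the enzyme that cuts the ubiquitin chain from the substrate, measured 8.73, 9.09 and 7.56 FPKM against 8.36, 8.81 and 8.85, with overlapping groups (adjusted p = 0.845). PSMD6 (RPN7) was the lowest lid subunit by gene value, at 3.75, 4.02 and 2.89 FPKM against 3.59, 3.31 and 3.50 (adjusted p = 0.942).

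The promoters of PSMD2 and PSMD3, the 2 members lower in every target library by gene value, are shown beside that of PSMD12, a lid member higher in every target library. RefSeq sequences on GRCh38 were matched for 38 of the 44 genes, and each stretch holds the 250 bases before the gene's start, 5′ to 3′ on the gene's strand. Capitals mark TGACNNNGC, the core of the antioxidant response element that NFE2L1 and NFE2L2 bind, and CCAAT, the box bound by NF-Y, each searched on both strands.
PSMD2, chr3:184298991-184299240, plus strand: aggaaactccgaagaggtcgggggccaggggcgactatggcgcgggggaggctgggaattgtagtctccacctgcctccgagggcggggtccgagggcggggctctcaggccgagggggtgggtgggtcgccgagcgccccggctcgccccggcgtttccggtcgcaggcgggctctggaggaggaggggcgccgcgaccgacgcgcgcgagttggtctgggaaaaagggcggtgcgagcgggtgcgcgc
PSMD3, chr17:39980557-39980806, plus strand: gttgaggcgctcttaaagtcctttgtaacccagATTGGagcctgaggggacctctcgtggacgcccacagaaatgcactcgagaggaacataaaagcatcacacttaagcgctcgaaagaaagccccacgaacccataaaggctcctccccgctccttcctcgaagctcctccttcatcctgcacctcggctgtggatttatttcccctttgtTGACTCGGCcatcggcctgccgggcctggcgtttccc
PSMD12, chr17:67366578-67366827, minus strand: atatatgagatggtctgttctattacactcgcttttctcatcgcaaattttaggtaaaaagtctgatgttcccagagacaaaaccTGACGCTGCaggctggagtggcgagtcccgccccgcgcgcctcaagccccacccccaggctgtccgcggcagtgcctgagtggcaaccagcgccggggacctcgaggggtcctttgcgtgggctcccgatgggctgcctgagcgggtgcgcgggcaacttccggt
The PSMD2 stretch held neither motif, that of PSMD3 held 1 of each, and that of PSMD12 held 1 antioxidant core. PSMD8 and PSMD11, the other lid members higher in every target library, held no antioxidant core. Of the other matched proteasome genes higher without overlap, PSMA3, PSMA4, PSMC3, PSMC4 and PSMD10 held none either. PSMD9, PSME1 and PSME2 each held at least 1. Over the 38 genes, TGACNNNGC was present in 10 (26.3%, beside 10.9% of all 35116 promoters in the table), CCAAT in 16 (42.1%, beside 32%) and the ETS core CCGGAAG in 10 (26.3%, beside 8.52%). The table covers genes of every kind and level, so these shares describe the promoters and are no test.

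The 4 activators bind the ends of the barrel in place of the cap. PSME1 and PSME2 encode the alpha and beta chains of PA28, which assemble into 1 ring and are known to be induced by interferon. PSME1 measured 24.9, 23.9 and 21.9 FPKM in control libraries and 27.2, 26.3 and 27.1 in target libraries (log2 change 0.18, 95% interval 0.05 to 0.32, limma adjusted p = 0.220). PSME2 measured 3.91, 4.27 and 3.53 FPKM against 5.13, 5.25 and 4.30 (0.26, 95% interval 0.05 to 0.48, adjusted p = 0.252). Both partners were higher in all 3 target libraries (2 of 4 activators, beside 16.6% of all tested genes). Target library 3 of PSME2 lay only just above the highest control library, and after rescaling to the same median the groups of PSME2 overlapped. PSME4, which encodes the nuclear activator PA200, measured 10.1, 11.2 and 10.5 FPKM against 10.95, 9.42 and 10.1, and its groups overlapped (adjusted p = 0.692). The promoters of the PA28 partners, with the motifs marked in the same way, read as follows.
PSME1, chr14:24135944-24136193, plus strand: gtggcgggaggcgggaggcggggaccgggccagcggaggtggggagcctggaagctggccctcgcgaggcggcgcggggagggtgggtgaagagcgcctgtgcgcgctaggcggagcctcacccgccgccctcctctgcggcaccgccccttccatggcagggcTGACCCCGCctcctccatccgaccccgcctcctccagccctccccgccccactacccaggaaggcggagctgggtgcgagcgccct
PSME2, chr14:24146611-24146860, minus strand: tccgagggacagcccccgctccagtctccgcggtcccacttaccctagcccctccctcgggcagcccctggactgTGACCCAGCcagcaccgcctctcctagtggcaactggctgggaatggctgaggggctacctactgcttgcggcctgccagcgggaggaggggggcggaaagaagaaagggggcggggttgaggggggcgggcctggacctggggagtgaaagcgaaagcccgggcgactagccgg
Each held 1 antioxidant core and no CCAAT box.

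PSME3, which encodes the nuclear PA28 gamma ring, had the largest log2 change of all members and did not pass. It lies on chromosome 17 at 40976402 to 40995775 (GRCh37, plus strand) and overlaps BECN1 on the opposite strand over 8966 bases. It measured 4.25, 3.87 and 4.69 FPKM in control libraries and 4.28, 10.7 and 11.4 FPKM in target libraries. Target library 1 lay within the control range and the other 2 far above it. Target libraries 2 and 3 were also those in which CLDN4 was near 0, and what they share was not tested. The log2 change was 0.80 with an SE of 0.32 (95% interval 0.02 to 1.58, adjusted p = 0.299), and without target library 1 it was 1.196 and passed (adjusted p = 0.015). BECN1 measured 3.27 FPKM in control and 3.54 in target libraries (log2 change 0.08). PSMF1, the inhibitor PI31, likewise differed within both groups, at 4.06, 10.5 and 4.12 FPKM in control and 6.81, 10.4 and 9.07 in target libraries, and its groups overlapped (log2 change 0.53, 95% interval -0.29 to 1.35, adjusted p = 0.502).

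The 8 assembly chaperones all had log2 changes above 0 (beside 61.2% of all tested genes), from 0.06 (PSMG4) to 0.22 (PSMD10), with a median of 0.14. Of these 0 passed, beside 0.749% of all tested genes (adjusted p 0.269 to 0.669). PSMD10, or gankyrin, which helps to build the base and is known as an oncoprotein, measured 14.9, 14.1 and 12.6 FPKM in control libraries and 17.7, 16.2 and 15.2 in target libraries. PSMD9, another base chaperone, measured 2.15, 2.11 and 2.17 FPKM against 2.23, 2.99 and 2.19. In both the groups did not overlap (2 of 8, beside 16.6% of all tested genes higher without overlap), and both overlapped after rescaling to the same median. For PSMD9 only target library 2 stood clear of the controls. PSMG3, which pairs with PSMG4 in building the alpha ring, measured 16.3, 15.01 and 17.4 FPKM against 19.98, 18.7 and 17.05 (log2 change 0.18, adjusted p = 0.322). POMP, which guides the beta subunits onto the alpha ring, measured 36.6, 39.7 and 34.4 FPKM against 38.3, 40.3 and 37.7, with overlapping groups (adjusted p = 0.613). PSMG4 was the lowest of all by gene value, at 1.46 ± 0.134 FPKM in control and 1.57 ± 0.078 in target libraries (SD, n = 3 per group).

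PSMC3IP, found by the symbol rule alone, measured 4.95 ± 0.464 FPKM in control and 5.77 ± 0.087 in target libraries (log2 change 0.19, adjusted p = 0.270), a difference of the same size as many subunits had.

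At the transcript level the table listed 139 transcripts of the 45 genes, and 109 of them were tested. None passed in limma (adjusted p 0.336 to 0.997), where 0.287% of 20890 transcripts did. At an unadjusted p under 0.05 there were 10 of 109, beside 7.4% of all tested transcripts. The groups did not overlap for 13, beside 15.2%; 9 of them were higher, beside 9.12%, and 4 were lower, beside 6.07%. In 12 of the 38 genes with several listed transcripts, the most abundant one was not the same in all 6 libraries. There were 8 transcripts, of 7 genes, listed at 0 in at least 1 library and above 5 FPKM in another.

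**Figure D4:**
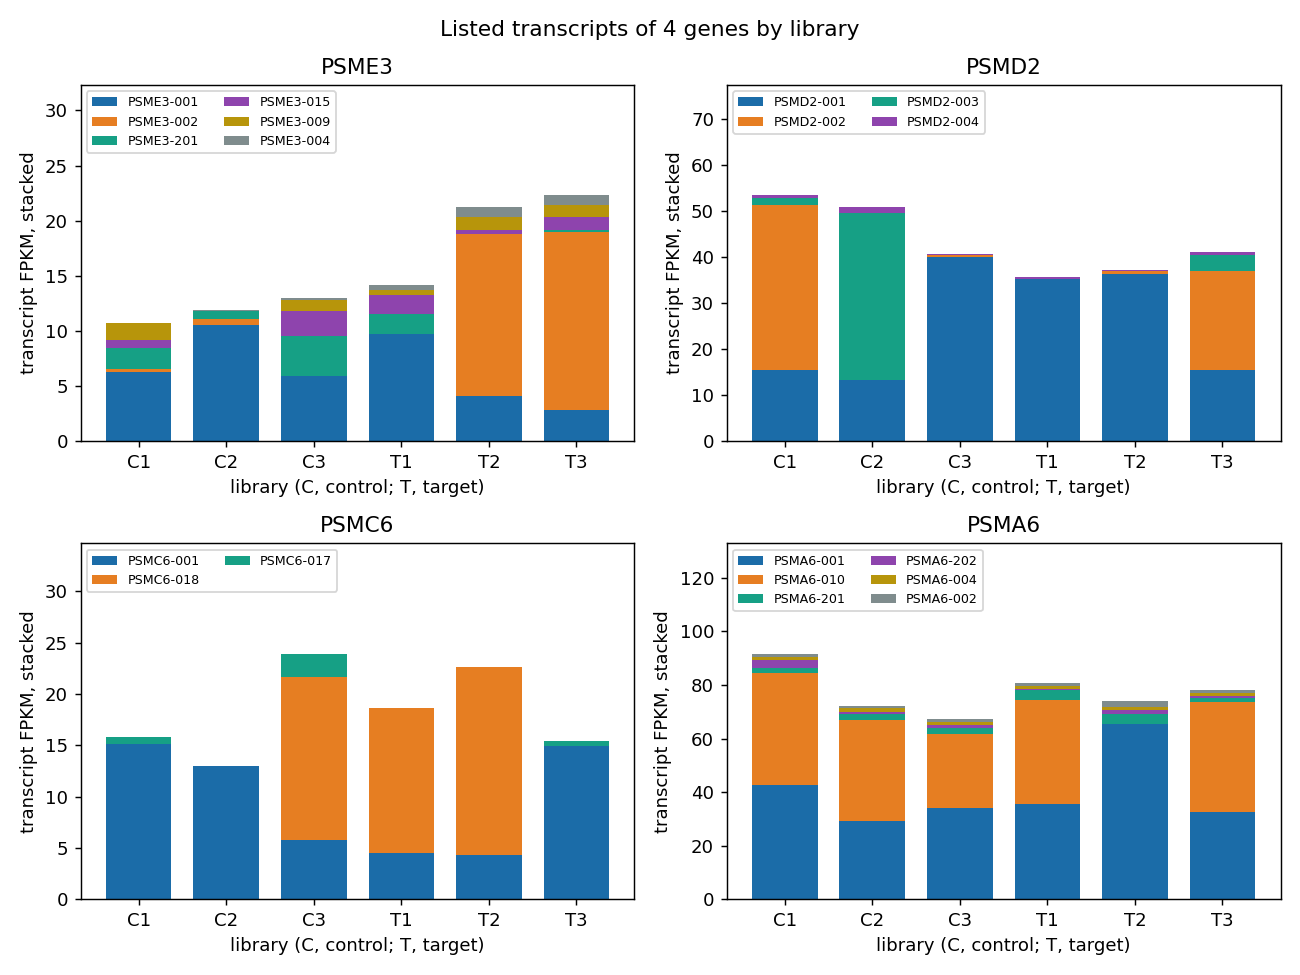
FPKM of the listed transcripts of PSME3, PSMD2, PSMC6 and PSMA6, stacked, in control libraries 1 to 3 (C1 to C3) and target libraries 1 to 3 (T1 to T3). PSME3-002 is near 0 except at 14.7 and 16.2 FPKM in T2 and T3, and the leading transcript of PSMD2, PSMC6 and PSMA6 changes between libraries of the same group.

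The transcripts of PSME3 split the libraries as the gene value did. PSME3-002, which runs to the far end of the locus, was at 0.272, 0.565 and 0.018 FPKM in control libraries, 0 in target library 1, and 14.7 and 16.2 in target libraries 2 and 3. PSME3-001 measured 6.27, 10.5 and 5.90 FPKM in control libraries and 9.71, 4.04 and 2.82 in target libraries. The high gene value of target libraries 2 and 3 thus came with PSME3-002 leading in those 2 libraries alone. Summed over its listed transcripts, PSME3 measured 10.7, 11.9 and 13.0 FPKM against 14.2, 21.2 and 22.3, without overlap, and did not pass (log2 change 0.63, adjusted p = 0.317).

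PSMD2 changed its leading transcript inside both groups. PSMD2-002 measured 35.8 FPKM in control library 1 and 21.6 in target library 3, and was at or under 0.678 in the other 4. PSMD2-003 measured 36.4 FPKM in control library 2 and at most 3.35 elsewhere, while PSMD2-001 led in control library 3 and target libraries 1 and 2 at 40.0, 35.2 and 36.4. Summed over listed transcripts, PSMD2 measured 53.4, 51.0 and 40.7 FPKM in control and 35.6, 37.2 and 41.0 in target libraries, so that the groups overlapped (log2 change -0.33, adjusted p = 0.390). The separation of PSMD2 at the gene level was therefore not seen in the transcript sum. PSMD3, by contrast, was carried by the single listed transcript PSMD3-001, which measured 31.9, 29.0 and 30.5 FPKM against 27.8, 26.7 and 26.3.

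PSMC6, an ATPase whose gene value was steady at 5.08 to 5.94 FPKM, divided its transcripts in the same uneven way. PSMC6-018 was at 0 in control libraries 1 and 2 and target library 3, and at 15.9, 14.1 and 18.3 FPKM in the other 3. PSMA6-010 was at 0 in target library 2 alone, where PSMA6-001 was highest at 65.3 FPKM. PSMD1-003 was at 0 in control libraries 1 and 2 and at 5.13, 5.80, 5.23 and 5.07 FPKM in the other 4, and it passed only without control library 3 (log2 change 2.67, adjusted p = 0.024). PSMA3-013 was the one such transcript that followed the groups, listed at 0 in all 3 control libraries and at 8.50, 1.54 and 4.49 FPKM in the target libraries (adjusted p = 0.336). How the tool divided reads between transcripts is not given in the sources used here, and its part in these values was not tested.

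Genes that work with the proteasome did not pass either. Of 19 cofactors analysed, which bring substrates to it or sit on it, 0 passed in limma (beside 0.749% of all tested genes), 0 had an unadjusted p under 0.05 (beside 16.1%), and the median log2 change was -0.02 (beside 0.03). UCHL5, a deubiquitinase of the cap, measured 6.71 ± 0.061 and 7.29 ± 0.259 FPKM in control and target libraries (SD, n = 3 per group; limma adjusted p = 0.349), and the shuttle protein UBQLN1 17.1 ± 0.164 and 16.03 ± 0.646 (adjusted p = 0.391). ADRM1, a ubiquitin receptor of the base, measured 51.8 and 51.9 FPKM. Cofactor genes thus lay on both sides of 0.

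Of 14 regulators of proteasome gene expression and activity, 0 passed and 0 had an unadjusted p under 0.05, beside the same 0.749% and 16.1% of all genes, and the median log2 change was -0.01. NFE2L1 measured 29.3 ± 9.77 and 29.4 ± 9.83 FPKM, a wide spread in both groups (adjusted p = 0.998). NFE2L2 measured 6.42 ± 1.47 and 4.88 ± 0.134 FPKM (adjusted p = 0.349), and AKIRIN2, which brings proteasomes into the nucleus, 12.1 ± 0.442 and 13.0 ± 0.387 (adjusted p = 0.438). NFE2L1 is controlled largely as a protein, which these data do not measure. NFE2L3 and DDI1 were not among the genes analysed here.

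Of 5 genes analysed that encode ubiquitin or its activating enzymes 0 passed and 0 had an unadjusted p under 0.05, again beside 0.749% and 16.1% of all genes, and their median log2 change was -0.08. The summed FPKM of the 5 was 340 to 369 in control libraries and 311 to 336 in target libraries. The polyubiquitin gene UBB measured 62.9 ± 1.54 and 59.6 ± 2.06 FPKM (log2 change -0.08, adjusted p = 0.434), and every target library lay below every control library. UBA1, the main ubiquitin-activating enzyme, measured 56.3 ± 2.88 and 53.1 ± 1.26 FPKM (log2 change -0.08, adjusted p = 0.474), and its groups overlapped.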

How the data were processed

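RNA-seq of 6 MKN45 libraries was used, 3 per group, with groups and replicate numbers from the sample titles. The deposited values are FPKM, 1 table of genes and 1 of transcripts, per the file headers. The builds hg19 and GRCh37 are per the submitters' processing notes. No aligner, counting tool, annotation release or strand setting is named in the sources used here. The gene table holds only genes whose mean reached 0.500 FPKM in either group.

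Values were analysed as log2(FPKM + 1) with limma-trend (R 4.3.3, limma 3.58.1) on features that reached 1 FPKM in 3 or more of 6 libraries. P-values are two-sided and Benjamini-Hochberg adjusted over all features tested, at 0.05. Log2 changes are target minus control and understate changes of low genes; intervals are 95%. Promoters are RefSeq's on GRCh38.p14, matched by symbol, and no coordinate was converted between builds. The fits were tested on simulated data. Named were members past the threshold, those of each part with the largest changes without overlap, the highest and lowest levels, the catalytic subunits, and from each list of related genes the 2 of smallest p. Other members and transcripts named were chosen after their values were seen, as were ADRM1 and NFE2L1. One gene of the ubiquitin list is not reported here. Members and lists were chosen with earlier results of these data known. Tables were read with Python 3.11.15, pandas 2.3.3 and scipy 1.17.1, and figures drawn with matplotlib 3.10.9.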

Additional observations from a re-analysis of the deposited data

How the results depend on the processing

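In every setting tried except 1, 0 members passed. The settings were pseudocounts of 0.1 and 0.01, all features kept, only features averaging 5 FPKM or more, quantile normalization, libraries scaled to equal medians, limma with no mean trend or with robust variances, the replicate number as a block, transcript sums, and leave-one-out fits. The exception was the fit without target library 1, where PSME3 passed, so the leave-one-out counts of members ran from 0 to 1, as did those of member transcripts. Over all genes 80 passed; the count was 52 among genes averaging 5 FPKM or more, 10 with the replicate block and 23 to 42 leaving out a library. Whether the replicate numbers pair the libraries is not settled. Deviations of same-numbered libraries correlated at -0.013, 0.019 and 0.066, and those of other pairs at -0.061 to 0.041. The block called 0 members, as did the fit without it. Members higher without overlap, PSMC3IP included, were 14, with 10 after quantile normalization, 9 with equal medians and 16 to 22 leaving out a library. Those lower were 2, and 2 to 4 leaving out a library. With 1 library fewer, groups separate more easily for every gene: 22.3% to 23% of all genes were then higher without overlap and 10.1% to 11.9% lower, beside 35.6% to 48.9% and 4.44% to 8.89% of the members.

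Of 716 log2 changes of members recomputed, 23 in 9 genes had the opposite sign. By quantile normalization PSMB4 was at -0.017 and PSMB3 at -0.0096. With equal medians PSMA1 was at -0.015, PSMB4 at -0.028 and PSMB3 at -0.017. By transcript sums PSMA1 was at -0.13, PSMA5 at -0.25 and PSMG1 at -0.024. Leaving out 1 library, the log2 change ran from -0.022 to 0.040 for PSMA1, -0.042 to 0.067 for PSMB3, -0.031 to 0.049 for PSMB4, -0.31 to 0.30 for PSMB5, -0.13 to 0.027 for PSMC5, -0.13 to 0.053 for PSMD6 and -0.035 to 0.083 for PSMD14. The cause was not tested. Of 135 medians over the members or a part, 5 moved by more than the replicate spread. FPKM divides by a total, so abundant genes that differ shift all others slightly. The depth is not given, so low members such as PSMG4 and PSMD9 have unknown counting error.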
